A study of Mus musculus with 18 samples.

Results

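The genes described here encode the enzymes that burn fatty acids. The list holds 33 genes for fatty acid activation, transport into mitochondria, beta-oxidation in mitochondria and in peroxisomes, electron transfer, and 2 nuclear receptors that control such genes. They were chosen by symbol, through the Ensembl identifiers of the count table, and all 33 were found among its 54281 rows and passed the filter on low counts, as did 15210 rows in all. RNA was sequenced from the descending aorta, with all vessel layers kept, the study describing it as cleaned without giving how much fat was left on each vessel, of 18 male C57BL/6 mice in 3 groups of 6. The HGPS mice carry the Hutchinson-Gilford progeria mutation of Lmna (labelled LMNAG609G), which makes cells produce progerin, and were 64 to 75 days old. The study describes its HGPS mice as homozygous, while the labels do not give the zygosity. The 2-mo WT mice were 62 days old, except mouse 6 at 95 days, and the 24-mo WT mice were 609 to 762 days old. The mutation sits in the mouse's own Lmna gene and so is not limited to a cell type, and the labels name no agent for any group. In the dissected vessel, fewer cells of a type and less RNA per cell cannot be told apart.

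Fatty acids enter the pathway when an acyl-CoA synthetase joins them to coenzyme A. Long chains then cross into mitochondria as carnitine esters and are shortened step by step by a dehydrogenase, a hydratase, a second dehydrogenase and a thiolase, and the first step passes its electrons to the electron transfer flavoprotein. Peroxisomes run a parallel cycle on very long and branched chains that begins with an oxidase. Mitochondrial beta-oxidation is abundant in heart, muscle and brown fat, and perivascular fat of the mouse thoracic aorta is known to resemble brown fat.

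Library totals ran from 12413229 to 30844775 estimated counts per mouse, and the values below are CPM, counts relative to the library total after TMM scaling. The vessel markers were present in every mouse. The summed level of 6 smooth muscle genes was 19400 to 27190 CPM in HGPS mice and 29330 to 37790 CPM in 2-mo WT mice. The mice differed widely in brown fat markers. Ucp1, the uncoupling protein that defines brown fat, was 103 to 962 CPM in HGPS mice (median 317), 2.27 to 249.9 CPM in 2-mo WT mice (median 79.8) and 17.0 to 153 CPM in 24-mo WT mice (median 38.6). Cidea, a lipid droplet protein of brown fat, was 79.1 to 268 CPM, 12.3 to 125 CPM and 17.3 to 94.0 CPM in the same order. Of the 10 brown fat markers, 9 were tested, and 7 rose in HGPS mice against 2-mo WT mice at an adjusted p under 0.05; Zic1 was too low to test. Of the 2 that did not rise, Prdm16, a transcription factor of brown fat, was 51.3 to 86.8 CPM in HGPS mice and 85.3 to 108 CPM in 2-mo WT mice, and did not pass the test (log2 fold change -0.49, adjusted p = 0.0602). The mean log2 CPM of those 9 was 4.44 to 6.42 in HGPS mice and 1.54 to 5.09 in 2-mo WT mice, a difference of 1.88 (exact permutation test, two-sided, n = 6 and 6, p = 0.00649, adjusted p = 0.0195 over 24 tests of marker lists). Mice 2 and 3 of the HGPS group, mouse 1 of the 2-mo WT group and mouse 1 of the 24-mo WT group were the highest of their groups, and mouse 4 was the lowest of the 2-mo WT mice. These mice stood apart in the same direction in most mitochondrial genes below. The white fat score was higher by 1.16 (adjusted p = 0.0289, same test) and the macrophage score by 0.92 (adjusted p = 0.00866), while the smooth muscle and fibroblast scores were lower, with log2 differences of -0.59 and -0.37 (adjusted p = 0.00866 for each). Of the 7 white fat markers 5 rose and 1 fell, namely Plin4, a lipid droplet coat protein, at 519 to 764 CPM in HGPS mice and 719.7 to 844 CPM in 2-mo WT mice (log2 fold change -0.45 ± 0.09, adjusted p = 0.000382). In 24-mo against 2-mo WT mice the fibroblast score was lower, with a difference of -0.25 (adjusted p = 0.00866), and the skeletal muscle score higher by 0.76 (adjusted p = 0.0468, exact permutation test). Of the 5 fibroblast markers 2 fell and 0 rose at an adjusted p under 0.05 (edgeR), and 2 had a positive log2 fold change. Their summed level had a median of 3006 CPM in 24-mo and 2878 CPM in 2-mo WT mice. Only 3 of 8 skeletal muscle markers were tested and enter that score. The 8 together were low, at 4.88 to 8.39 CPM in 24-mo and 3.14 to 4.71 CPM in 2-mo WT mice. The part of these markers in the results below was not tested, apart from the fits with the brown fat, macrophage and skeletal muscle scores as covariates.

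Most of the fatty acid oxidation genes were higher in the progeroid aorta. In edgeR's quasi-likelihood test of HGPS against 2-mo WT mice, 22 of 33 had an adjusted p under 0.05 and rose, and 1 (Acox3) fell, where 22% of all 15210 tested genes rose and 21.2% fell. The median log2 fold change of the 33 was 0.77, against 0.003 over all tested genes. At the stricter cut-offs of the study (adjusted p under 0.001 with a change of 1.5-fold or more), 7 genes rose, namely Acsl5, Crat, Slc25a20, Etfdh, Acadvl, Eci2 and Hadhb, beside 5.27% of all genes, and 0 fell, beside 4.23% (1 member was lower at an unadjusted p under 0.05, and DESeq2 also called 0). Only Eci2 had 6 HGPS values that did not overlap with the 6 of 2-mo WT mice, a separation seen for 21.9% of tested genes. Most of the genes that rose were mitochondrial. Of the 20 members of the carnitine shuttle, mitochondrial beta-oxidation and the electron transfer flavoprotein, 18 rose, and of the 13 others 4 rose and 1 fell. This split is by role. The 13 hold Acot2, whose enzyme is also mitochondrial, and the 20 hold Eci2, whose enzyme is found in peroxisomes too. The count of 7 depended on single libraries, with 1 to 16 called when 1 mouse was left out, while the count of 22 stayed between 21 and 25.

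**Figure D1:**
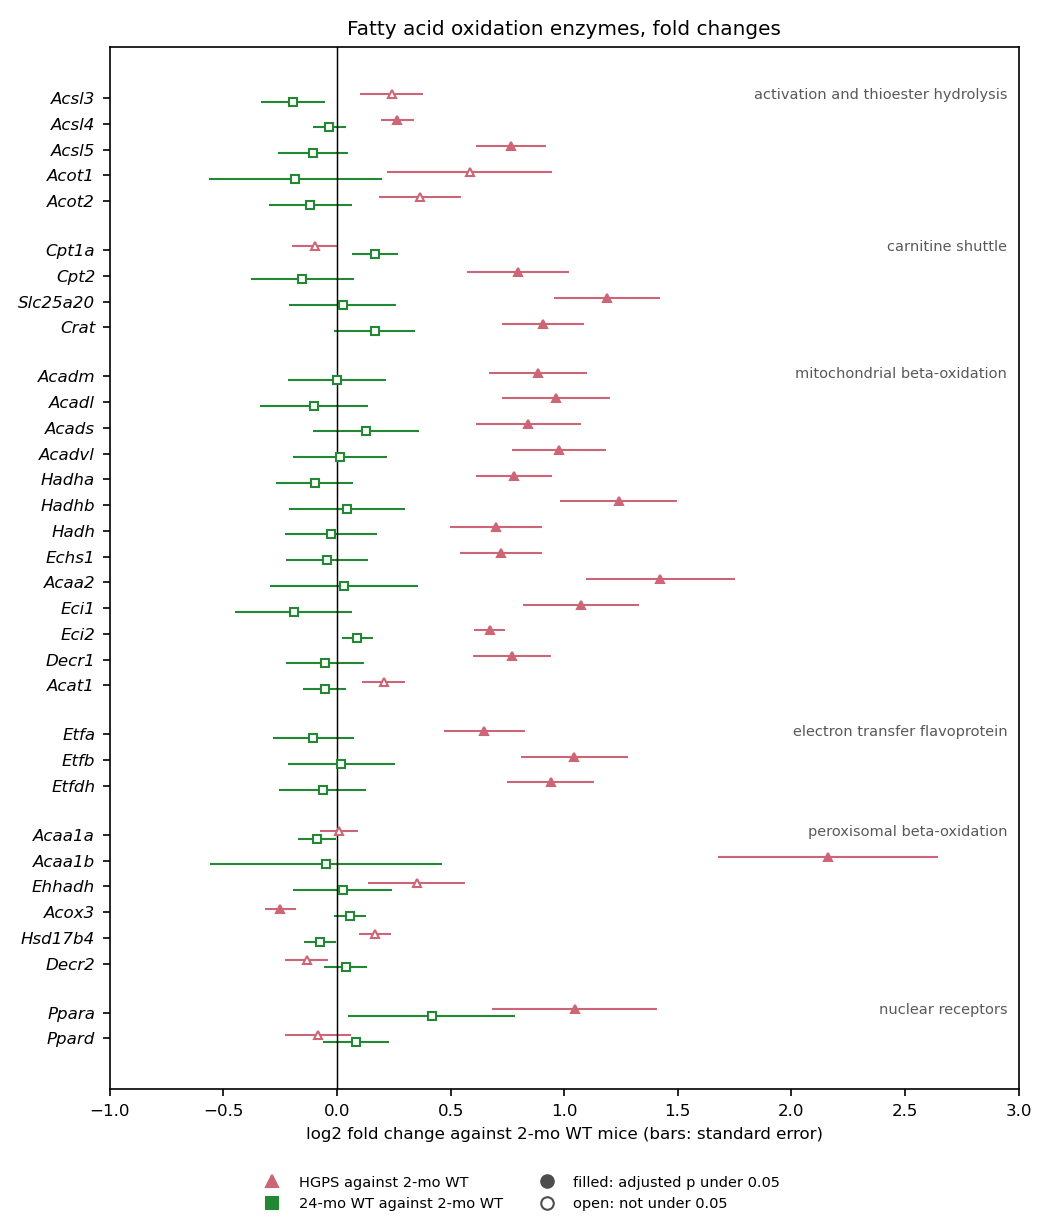
Log2 fold change of each of the 33 genes (x axis, bars are standard errors from edgeR) by role, for HGPS against 2-mo WT mice (triangles) and 24-mo WT against 2-mo WT mice (squares), with filled symbols at an adjusted p under 0.05. All 22 filled triangles right of 0 except those of Acsl4, Acsl5, Acaa1b and Ppara belong to mitochondrial shuttle, beta-oxidation or electron transfer genes, and no square is filled.

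In the 2-mo WT aorta the highest of the 33 genes were beta-oxidation genes of mitochondria. Per kilobase of transcript, Hadhb was highest at 90.8 CPM per kb, followed by Acadm at 74.9 and Acadvl at 71.8 CPM per kb. The acyl-CoA synthetases among the 33 were lower, with Acsl5 at 14.8 and Acsl3 at 5.33 CPM per kb. Acsl1, a synthetase outside the 33, was 217 to 351 CPM in 2-mo WT mice, against 55.0 to 73.3 CPM for Acsl5 (not scaled by length). The receptors Ppara and Ppard were nearly level at 2.58 and 2.57 CPM per kb, and the thioesterase Acot1 was lowest at 0.439 CPM per kb.

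**Figure D2:**
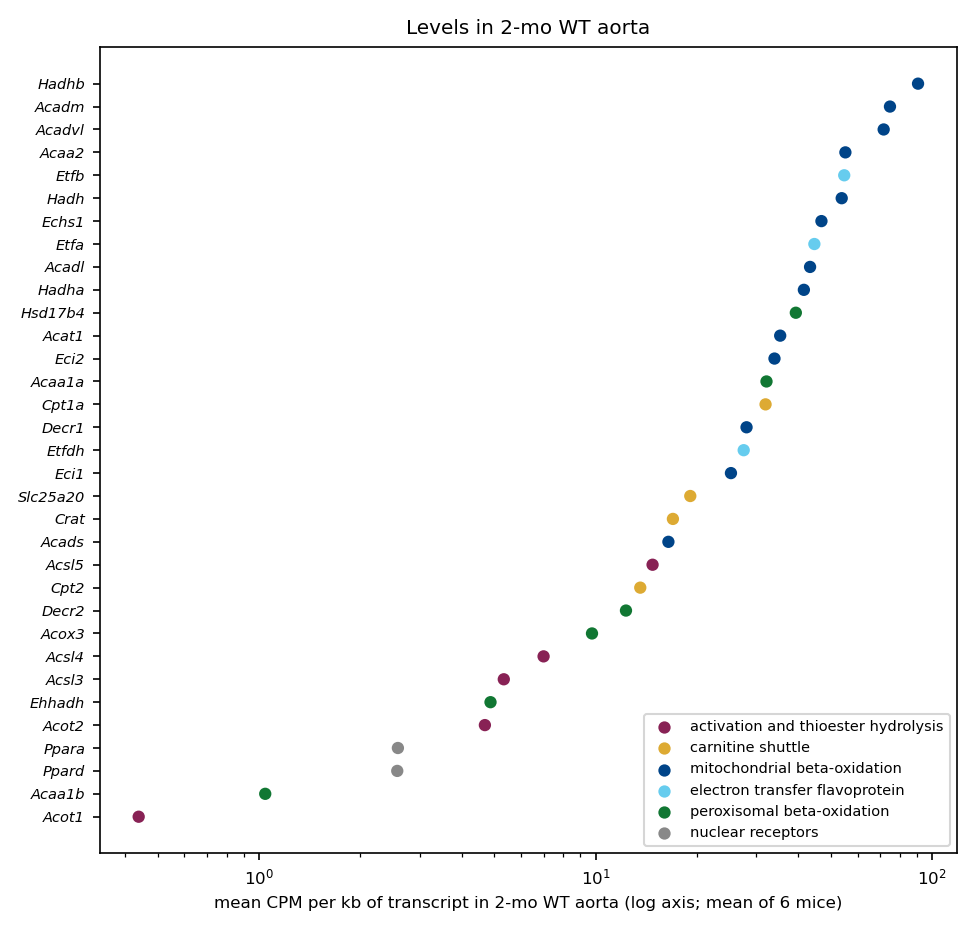
Mean level of each gene in the aorta of 6 2-mo WT mice in CPM per kb of its longest transcript (x axis, log scale), coloured by role. The mitochondrial beta-oxidation genes run from Acads at 16.5 to Hadhb at 90.8 CPM per kb. Genes of other roles, such as Etfb, Hsd17b4 and Cpt1a, lie in the same range, and the thioesterase Acot1 lies lowest.

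Of the 5 genes of activation and thioester hydrolysis, 2 rose in HGPS against 2-mo WT mice. Acsl5 (chromosome 19), a long-chain acyl-CoA synthetase, was 70.7, 91.9 and 158 CPM (lowest, median and highest) in HGPS mice, 55.0, 63.1 and 73.3 CPM in 2-mo WT mice and 49.2, 59.3 and 63.8 CPM in 24-mo WT mice. The lowest HGPS mouse was within the 2-mo WT range and above every 24-mo WT mouse. The log2 fold change was 0.77 ± 0.15 (SE, edgeR, adjusted p = 0.000593). Acsl4, the synthetase that prefers arachidonic acid, rose by less, at 0.27 ± 0.07 (adjusted p = 0.00578), from a mean of 37.0 ± 2.58 to 44.5 ± 5.23 CPM (SD, n = 6 each). Acsl3, a synthetase of lipid droplets and endoplasmic reticulum, had a value of 0.24 (adjusted p = 0.177).

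Acot1 and Acot2 encode thioesterases that release free fatty acids from acyl-CoA in the cytosol and in mitochondria, respectively. Their log2 fold changes in HGPS against 2-mo WT mice were 0.59 (adjusted p = 0.205) and 0.37 (adjusted p = 0.107), so neither passed the test. They lie side by side on chromosome 12 and are close copies. Over 1236 aligned coding bases they were 95.6% identical, and 16.7% of the distinct 31-base words of Acot1 transcripts also occur in Acot2 transcripts. Their counts are therefore uncertain, the more so as Acot1 had a mean of only 22.3 counts per mouse. The stretch of 30 coding bases with the most differences, in exon 3 of both genes, is shown because reads can be told apart at such bases. Capitals mark the 8 bases that differ (GENCODE M21, build GRCm38, chr12:84016976-84017005 for Acot1 and chr12:83992698-83992727 for Acot2, both on the plus strand):
Acot1: aGgatggCctcAAggatgtTgtAgaTgctT
Acot2: aAgatggTctcTTggatgtCgtGgaAgctC

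Of the 4 genes of the carnitine shuttle, 3 rose in HGPS against 2-mo WT mice. Slc25a20 (chromosome 9), the carrier that takes acylcarnitine across the inner mitochondrial membrane, was 41.3, 63.0 and 122 CPM in HGPS mice, 23.3, 32.3 and 52.3 CPM in 2-mo WT mice and 28.5, 34.4 and 44.3 CPM in 24-mo WT mice. Mouse 4 was the lowest of the HGPS mice and the only one within the 2-mo WT range. The log2 fold change against 2-mo WT mice was 1.19 ± 0.23 (SE, edgeR, adjusted p = 0.000494). Crat, which makes acetylcarnitine, rose by 0.91 ± 0.18 (adjusted p = 0.000546), and Cpt2, the inner membrane transferase, by 0.80 ± 0.22 (adjusted p = 0.00742). Cpt1a (chromosome 19), the outer membrane transferase that is the entry step of the pathway, did not pass the test. It was 115, 129 and 149 CPM in HGPS mice, 125, 139.8 and 153 CPM in 2-mo WT mice and 129, 142 and 209 CPM in 24-mo WT mice. These ranges overlapped, and the log2 fold change was -0.10 ± 0.10 (adjusted p = 0.455). Cpt1b, the isoform of muscle and brown fat, was not among the 33 and was looked up after the value of Cpt1a was seen. It was 39.9 to 177 CPM in HGPS mice and 1.95 to 69.9 CPM in 2-mo WT mice (log2 fold change 2.02 ± 0.59, adjusted p = 0.00953).

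Of the 13 genes of mitochondrial beta-oxidation, 12 rose in HGPS against 2-mo WT mice, and the median over the 13 was 0.84 on the log2 scale. Hadhb (chromosome 5), the thiolase subunit of the trifunctional protein that works on long chains, had the highest level. Its values were 243, 379.9 and 705 CPM in HGPS mice, 121, 175 and 309.8 CPM in 2-mo WT mice and 156, 173 and 289.9 CPM in 24-mo WT mice. The HGPS and 2-mo WT groups overlapped, since mouse 1 of the 2-mo WT group was above 2 of the HGPS mice. The log2 fold change was 1.24 ± 0.26 (SE, edgeR, adjusted p = 0.000792). Hadha, the other subunit of the same enzyme, rose by 0.78 ± 0.17 (adjusted p = 0.00112). The 5′ ends of Hadha and Hadhb face away from each other with 85 bases between them in GENCODE M21 (Hadha on the minus strand, Hadhb on the plus strand).

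The acyl-CoA dehydrogenases, which take the first step on chains of different length, rose together. Acadvl, for very long chains, was 185, 282 and 453 CPM in HGPS mice and 116, 151 and 237 CPM in 2-mo WT mice, a log2 fold change of 0.98 ± 0.21 (adjusted p = 0.000921). Acadl for long chains rose by 0.96 ± 0.24 (adjusted p = 0.00305), Acadm for medium chains by 0.89 ± 0.22 (adjusted p = 0.00278) and Acads for short chains by 0.84 ± 0.23 (adjusted p = 0.00645). In each of the 4 the ranges of the groups overlapped. Of the later steps, Acaa2, the thiolase for medium chains, had the largest log2 fold change of the 13 at 1.42 ± 0.33 (adjusted p = 0.00185) and also the widest spread, from 45.5 to 160 CPM within the 2-mo WT mice alone. Hadh, the second dehydrogenase, and Echs1, the hydratase, rose by 0.70 ± 0.20 (adjusted p = 0.00879) and 0.72 ± 0.18 (adjusted p = 0.00319). Acat1, which makes and splits acetoacetyl-CoA and also serves ketone and isoleucine breakdown, had a value of 0.21 (adjusted p = 0.0860) and was the one gene of the 13 that did not pass.

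The 3 auxiliary enzymes for unsaturated chains among these 13 rose. Eci1, the mitochondrial enoyl-CoA isomerase, rose by 1.07 ± 0.25 (adjusted p = 0.00223) and Decr1, the dienoyl-CoA reductase, by 0.77 ± 0.17 (adjusted p = 0.00138), both with overlapping groups. Eci2 (chromosome 13), an isomerase found in mitochondria and in peroxisomes, was 85.6, 93.3 and 105 CPM in HGPS mice, 54.2, 59.4 and 63.0 CPM in 2-mo WT mice and 58.5, 62.3 and 73.6 CPM in 24-mo WT mice. All 6 HGPS mice lay above all 12 WT mice. Its log2 fold change of 0.67 ± 0.07 (SE, edgeR) had the smallest adjusted p of the 33 (6.88e-07), with an SE of 0.07 against 0.25 for Eci1.

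All 3 genes of the electron transfer flavoprotein system rose in HGPS against 2-mo WT mice. Etfdh (chromosome 3), the dehydrogenase that hands electrons on to ubiquinone, was 81.3, 109.6 and 184 CPM in HGPS mice, 46.7, 64.9 and 90.8 CPM in 2-mo WT mice and 55.7, 60.1 and 80.8 CPM in 24-mo WT mice. The HGPS mice lay above all 24-mo WT mice, while mouse 4, the lowest of them, was below mouse 1 of the 2-mo WT group. The log2 fold change was 0.94 ± 0.19 (SE, edgeR, adjusted p = 0.000644). The flavoprotein subunits Etfb and Etfa rose by 1.05 ± 0.24 (adjusted p = 0.00157) and 0.65 ± 0.18 (adjusted p = 0.00641). Of the distinct 31-base words in Etfb transcripts, 47.3% also occur in the gene model Gm45233, and of those in Hadhb transcripts 19.5% occur in Gm13910, so the counts of Etfb and Hadhb depend on how such reads were split.

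**Figure D3:**
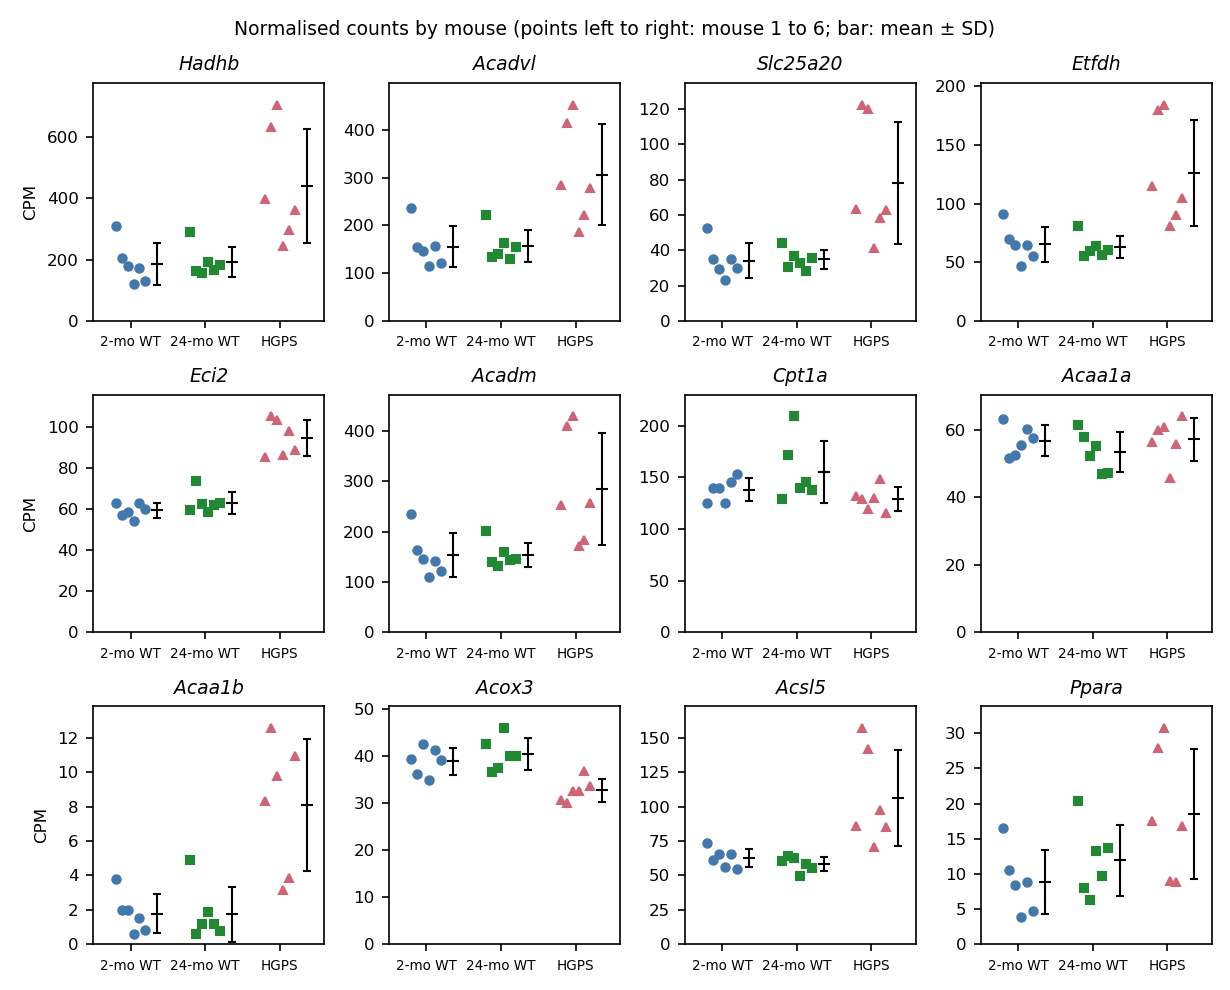
CPM of 12 genes in each mouse (y axis from 0; points from left to right are mice 1 to 6 of a group, bars are mean ± SD, n = 6). In Hadhb, Acadvl, Slc25a20, Etfdh, Acadm, Acsl5 and Ppara mice 2 and 3 stand highest in the HGPS group and mouse 1 in the 2-mo WT group, whereas Eci2 separates all 6 HGPS mice from the WT mice and the groups overlap in Cpt1a, Acaa1a and Acox3.

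Of the 6 peroxisomal enzymes, 1 rose (Acaa1b) and 1 fell (Acox3) in HGPS against 2-mo WT mice, and their median log2 fold change was 0.09. Acox3 (chromosome 5), an oxidase for branched chains, was 29.9, 32.5 and 36.8 CPM in HGPS mice, 34.7, 39.1 and 42.4 CPM in 2-mo WT mice and 36.6, 39.9 and 45.9 CPM in 24-mo WT mice. Its highest HGPS mouse was above the lowest mice of both WT groups. The log2 fold change of -0.25 ± 0.07 (SE, edgeR, adjusted p = 0.00634) was small. Hsd17b4, the bifunctional enzyme of branched and very long chains, had a value of 0.17 (adjusted p = 0.0646), Ehhadh, the other bifunctional enzyme, 0.35 (adjusted p = 0.199), and Decr2, the peroxisomal reductase, -0.13 (adjusted p = 0.271).

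Acaa1a and Acaa1b are near-identical copies of the peroxisomal thiolase, both on chromosome 9, of which 1 passed the test; the difference between them was not tested. Acaa1a was 45.6, 58.3 and 64.0 CPM in HGPS mice and 51.5, 56.5 and 63.3 CPM in 2-mo WT mice, a log2 fold change of 0.01 ± 0.08 (adjusted p = 0.947). Acaa1b was 3.13, 9.04 and 12.6 CPM in HGPS mice, 0.568, 1.73 and 3.76 CPM in 2-mo WT mice and 0.574, 1.18 and 4.86 CPM in 24-mo WT mice. Its 2 lowest HGPS values came from mice 4 and 5, of which mouse 4 was within the 2-mo WT range. The log2 fold change of Acaa1b, 2.16 ± 0.48 (SE, edgeR, adjusted p = 0.00141), was the largest of the 33, at a mean of 80.2 counts per mouse. Over 1272 coding bases the copies were 96.5% identical, and 40.0% of the 31-base words of Acaa1b also occur in Acaa1a, so the split of reads between them is uncertain. The 30 coding bases where they differ most, in exon 3 of both, are shown because it is at such bases that reads of the 2 genes can be told apart, with capitals at the 9 that differ (GENCODE M21, build GRCm38; chr9:119342725-119342754, plus strand, for Acaa1a and chr9:119155771-119155800, minus strand, for Acaa1b):
Acaa1a: aatgtTcttGagccAggAgcCggGgcTGtC
Acaa1b: aatgtGcttCagccCggGgcTggAgcCAtT

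Among the nuclear receptors, Ppara, a lipid-sensing receptor that switches on many of these genes, was 8.77, 17.2 and 30.8 CPM in HGPS mice, 3.89, 8.61 and 16.6 CPM in 2-mo WT mice and 6.31, 11.5 and 20.3 CPM in 24-mo WT mice. The ranges overlapped widely. It rose by 1.05 ± 0.36 (SE, edgeR, adjusted p = 0.0253) against 2-mo WT mice. This call was lost without HGPS mouse 2 (adjusted p = 0.0653) or 3 (adjusted p = 0.0748), and without 2-mo WT mouse 4 (adjusted p = 0.0573) or 6 (adjusted p = 0.0582). Its close relative Ppard had a value of -0.09 (adjusted p = 0.671).

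Promoter sequences of 300 bases from RefSeq (build GRCm38.p6) were at hand for 28 of the 33 genes. The binding motif of PPAR receptors with their partner RXR, a direct repeat searched as AGGTCANAGGTCA on both strands, was in 0 of the 28 promoters and in 0.0481% of all 27025 genes with a promoter. The single site with a leading A, AAGGTCA, which is bound by estrogen-related receptors and overlaps with the direct repeat when a base pair matches, was in 1 of the 28, that of Acadm, and in 5.38% of all genes. Exact matches to the direct repeat were so rare among all genes that 0 in 28 promoters cannot show whether the members lack PPAR sites. Inexact sites, and sites outside these windows, were not searched. The match in Acadm is printed as the one place in these windows where a member holds either motif. It lies 249 to 243 bases before the start, on the strand opposite to the gene, so that it reads as its reverse complement, in capitals (chr3:153944864-153944893, minus strand):
Acadm: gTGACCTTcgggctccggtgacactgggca

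No change with natural aging was called. In 24-mo WT against 2-mo WT mice, 0 of 33 rose or fell at an adjusted p under 0.05 in edgeR, beside 6.29% of all tested genes that rose and 5.38% that fell, and 0 passed the stricter cut-offs, beside 1.28% and 0.717%. At an unadjusted p under 0.05 the count was also 0, and DESeq2 called 0. No member had groups that did not overlap, beside 6.28% of tested genes. The log2 fold changes ran from -0.19 (Acsl3) to 0.42 (Ppara) with a median of -0.03. For Hadhb the value was 0.04 ± 0.26 (SE), for Eci2 0.09 ± 0.07 and for Cpt1a 0.17 ± 0.10. A change of Ppara passed the test (0.59 ± 0.16, adjusted p = 0.0194) in the fit with the brown fat score as a covariate.

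HGPS mice were then set against the 24-mo WT mice, which tests whether the changes with HGPS and with age differ, since both were measured from the same 2-mo WT mice. In edgeR's test 25 of 33 were higher in HGPS mice and 2 were lower at an adjusted p under 0.05, beside 23.8% and 23.6% of all tested genes. At the stricter cut-offs 8 were higher, beside 6.02%, and 0 were lower, beside 6.11% (2 were lower at an unadjusted p under 0.05, and DESeq2 called 0). The count of 8 was 1 to 17 when 1 mouse was left out, and 2 in a fit of only these groups. In Acsl5, Etfdh and Eci2 the groups did not overlap, as in 22.2% of tested genes. Slc25a20 was higher in HGPS mice by a log2 fold change of 1.16 ± 0.23 (adjusted p = 0.000462), Hadhb by 1.20 ± 0.26 (adjusted p = 0.00086) and Eci2 by 0.58 ± 0.07 (adjusted p = 1.75e-06). The 2 lower genes were Acox3, at -0.31 ± 0.07 (adjusted p = 0.00114), and Cpt1a, at -0.27 ± 0.10 (adjusted p = 0.0343). The call for Cpt1a was lost without HGPS mouse 2 (adjusted p = 0.0544), 3 (0.0743) or 6 (0.0713), or without 24-mo WT mouse 2 (0.0618) or 3 (0.104). With the brown fat score as a covariate, Acsl4, Acsl5 and Eci2 were higher at an adjusted p under 0.05. Acox3 (adjusted p = 0.00553), Decr2 (0.0486) and Ppara (0.0063) were lower in that edgeR fit. It called 4954 of 15210 tested genes in either direction.

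The mitochondrial genes and the brown fat markers were ordered alike over the mice. The summed level of the 13 mitochondrial beta-oxidation genes was 1539 to 3683 CPM in HGPS mice (median 2226), 979.5 to 1956 CPM in 2-mo WT mice (median 1291) and 1137 to 1772 CPM in 24-mo WT mice (median 1210.0). The lowest HGPS mouse, mouse 4, lay below the highest mouse of each WT group. Of the 20 mitochondrial members, 19 were highest in mouse 2 or 3 within the HGPS group, 18 were highest in mouse 1 within the 2-mo WT group and 17 in mouse 1 within the 24-mo WT group, and 17 were lowest in mouse 4 within the 2-mo WT group. These are the mice with the highest and lowest brown fat scores. The 6 peroxisomal genes together ran from 223 to 294 CPM in HGPS mice and from 222 to 271 CPM in 2-mo WT mice, a narrower range. Their sum had the same extreme mice. It was highest in mice 2 and 3 of the HGPS group (289.8 and 293.8 CPM) and in mouse 1 of each WT group, and lowest in mouse 4 of the 2-mo WT group.

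**Figure D4:**
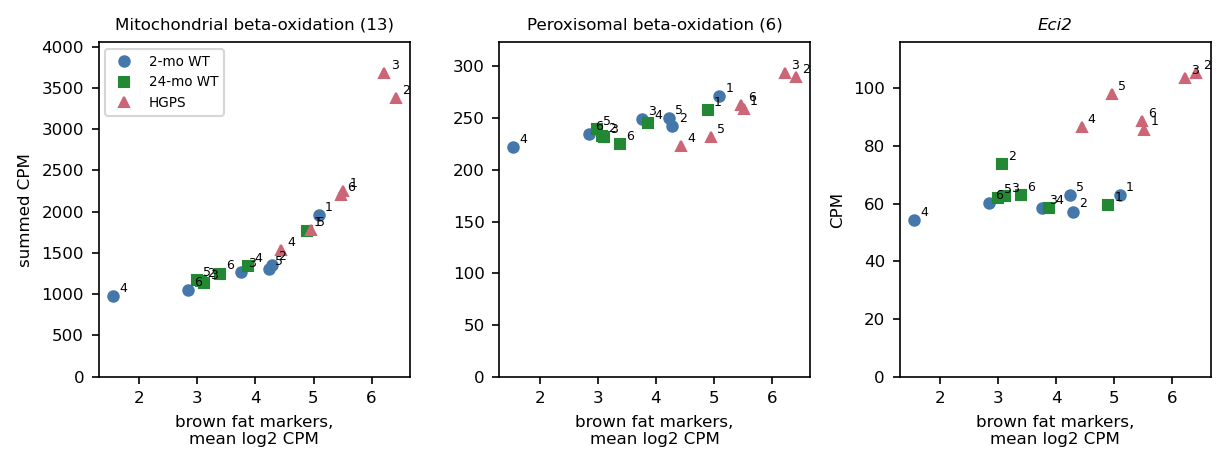
Summed CPM of the 13 mitochondrial and of the 6 peroxisomal beta-oxidation genes, and CPM of Eci2 (y axes, from 0), against the mean log2 CPM of 9 brown fat markers (x axis) in 18 mice, each numbered by its mouse. The mitochondrial sum is 979.5 CPM in the mouse with the lowest marker level and reaches 3683 CPM in one of the 2 mice with the highest, whereas in Eci2 the 6 HGPS mice lie above all WT mice, also where their marker levels overlap.

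With the brown fat score as a covariate in the edgeR fit, 2 members were higher and 1 lower in HGPS against 2-mo WT mice at an adjusted p under 0.05, where 26% of all 15210 tested genes were called in either direction, and the median log2 fold change of the 33 was 0.16. Eci2 kept 0.60 ± 0.09 (adjusted p = 0.000176), Acsl4 0.34 ± 0.09 (adjusted p = 0.0122) and Acox3 -0.31 ± 0.09 (adjusted p = 0.0180). Hadhb had 0.35 ± 0.17 (adjusted p = 0.124), and the 3 electron transfer genes had a median of 0.24 with 0 called. The score itself differed between the groups, so what the score and the genotype share cannot be told apart in this fit. Without HGPS mice 2 and 3, 17 members rose and 2 fell, beside 33.3% of 14916 tested genes called in either direction, with a median of 0.44, and 10 of the 13 mitochondrial beta-oxidation genes remained above the threshold. Adding the macrophage score to the brown fat score left Eci2 as the 1 member called, at 0.47 ± 0.12 (adjusted p = 0.0431), where 3.26% of all tested genes were called in either direction. The macrophage score was 5.75 to 6.47 in HGPS mice and 4.89 to 5.50 in 2-mo WT mice, with no overlap. It therefore largely stands in for the genotype, and the loss of calls in this fit cannot decide between them.

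**Figure D5:**
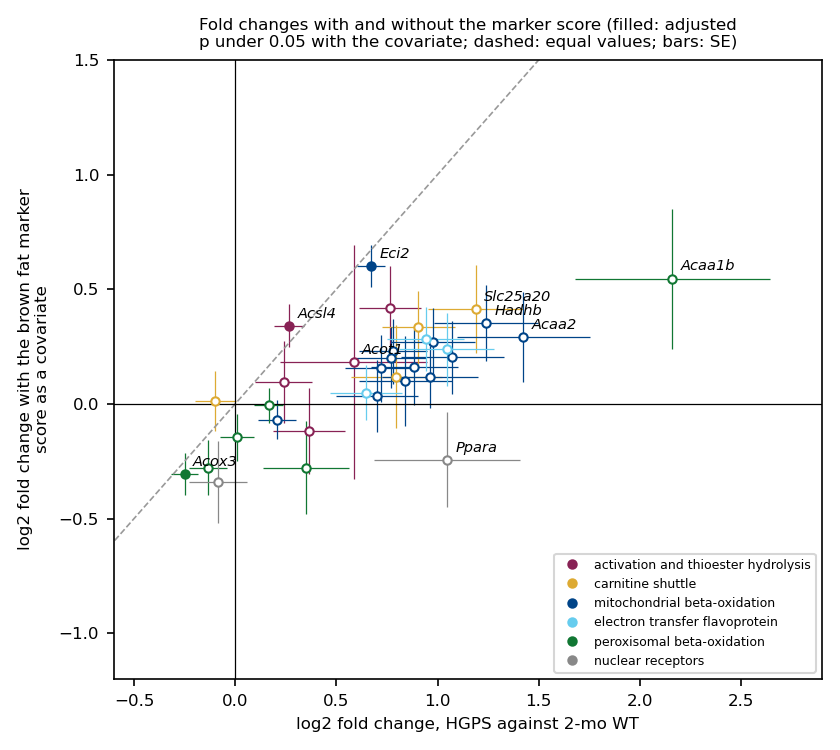
Log2 fold change of the 33 genes in HGPS against 2-mo WT mice without (x axis) and with (y axis) the brown fat marker score as a covariate (bars are standard errors, the dashed line marks equal values, filled symbols have an adjusted p under 0.05 with the covariate). Eci2, Acsl4 and Acox3 lie near the dashed line and are filled, while Acaa1b, Acaa2, Hadhb and Ppara lie far below it.

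A wider list of 71 other genes of fatty acid use was described beside the members, of which 67 were tested. In HGPS against 2-mo WT mice 35 rose and 7 fell at an adjusted p under 0.05, beside 22% and 21.2% of all tested genes. The median log2 fold change was 0.37. At the stricter cut-offs 11 rose and 0 fell, beside 5.27% and 4.23%. Of the 16 genes of uptake, activation and carnitine use, 10 rose at an adjusted p under 0.05, beside the same 22%. Fabp4, the fatty acid binding protein of fat cells, rose by 1.97 ± 0.38 (edgeR, adjusted p = 0.000374), from a median of 178 CPM to 843 CPM. Cd36, a fatty acid receptor of the cell surface, rose by 1.74 ± 0.33 (adjusted p = 0.000396), Fabp5 by 1.01 ± 0.17 (adjusted p = 0.000143) and the synthetase Acsl1 by 0.99 ± 0.18 (adjusted p = 0.000242). Each of the 4 had overlapping groups.

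Of 20 tested further peroxisomal genes, 8 rose and 3 fell, beside 22% and 21.2% of all tested genes. Scp2, a peroxisomal sterol carrier and thiolase, was 277 to 387 CPM in HGPS mice and 199 to 246 CPM in 2-mo WT mice, with no overlap, and rose by 0.61 ± 0.08 (edgeR, adjusted p = 1.03e-05). Of 18 other acyl-CoA genes, 9 rose and 2 fell, beside the same shares of all tested genes. Of the 9 that rose, Echdc1 at 0.88 ± 0.16 (adjusted p = 0.000218) and the thioesterase Acot13 at 0.61 ± 0.11 (adjusted p = 0.000154) passed the stricter cut-offs. Bdh1, which interconverts the ketone bodies, was lower in HGPS than in 24-mo WT mice by -0.92 ± 0.11 (adjusted p = 2.16e-06) and rose with age by 0.46 ± 0.11 (adjusted p = 0.00892).

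Of 13 tested regulators and uncoupling genes, 8 rose and 2 fell in HGPS against 2-mo WT mice, beside 22% and 21.2% of all tested genes. Ppargc1a, the coactivator that drives mitochondrial gene programmes, was 7.63, 15.2 and 27.4 CPM in HGPS mice, 3.00, 4.62 and 5.87 CPM in 2-mo WT mice and 2.15, 3.70 and 4.58 CPM in 24-mo WT mice, with all HGPS mice above all WT mice. Its log2 fold change was 1.86 ± 0.32 (edgeR, adjusted p = 0.000131). Pdk4, a kinase that turns off pyruvate use when fat is burned, rose by 1.54 ± 0.31 (adjusted p = 0.000558) and Ucp2, an uncoupling protein of many tissues, by 1.28 ± 0.21 (adjusted p = 7.73e-05).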

How the data were processed

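RNA-seq of descending aorta was analysed from one table of 18 mice. The authors quantified reads with salmon against GENCODE M23 and summed transcripts to genes with tximport, and the deposited values are estimated counts written as whole numbers; the submitters' notes also name Bowtie 0.12.2, with no role given. The values were used as counts. Symbols and positions came from GENCODE M21 (54107 of 54281 identifiers found). A gene entered the test if 6 or more mice had 10 or more counts. All 3 groups entered one fit in edgeR 4.0.16 (R 4.3.3; TMM, quasi-likelihood test, 15 residual degrees of freedom), adjusted by Benjamini-Hochberg over 15210 genes; SE is the log2 fold change over the root of F. The study used DESeq2; version 1.42.0 was an alternative. CPM carry TMM factors, and log2 CPM a prior count of 2. Lengths are of the longest basic transcript.

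The labels do not say whether mice shared litters or batches, and p-values measure the spread between these mice. The fit did not pair mice by replicate number. Of 18 same-numbered pairs, 2 had deviations correlated above 0.1, which cannot decide whether such mice shared a litter or batch. Replicates differed by more than sampling noise (chi-square per degree of freedom 7.64 or more in 45 pairs). The members and all lists were chosen with earlier results of these data known. Named genes outside the members passed the stricter cut-offs in a comparison with a mean of at least 100 counts, up to 4 per list and direction, apart from Ucp1 and Cidea, which were named in every case, and Cpt1b, Zic1, Prdm16 and Plin4, which were chosen after their values were seen. Some genes that meet this rule are not reported here. The skeletal muscle, cardiac muscle and endothelial scores differed from 2-mo WT mice in HGPS mice by 0.42, 0.95 and 0.03 and did not pass the test (adjusted p = 0.236, 0.229 and 0.991). Single muscle markers did differ at an adjusted p under 0.05 in edgeR. Of 4 tested cardiac markers 2 rose and 0 fell, and of 3 tested skeletal markers 1 rose and 1 fell. The cardiac markers summed to 3.83 to 16.5 CPM in HGPS mice and 3.61 to 6.17 CPM in 2-mo WT mice. Scores were compared by exact permutation tests (smallest possible p 0.00216). The procedure was tested on simulated data. Alternatives are given in the closing section.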

Additional observations from a re-analysis of the deposited data

Results flagged for a closer look

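In each group of 6 mice, the gap between the highest or lowest value and its neighbour was compared with the range of the group (Dixon's ratio, at its 95% critical value for 6 values). Over 99 groups (33 genes in 3 groups) 20 lay beyond it, and chance gives about 1 in 20. The genes are not independent, so the count is a description.

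In the 2-mo WT group, mouse 1 stood above the others in 8 genes: Crat at 100.7 CPM, Acads at 48.4 CPM, Acadvl at 237 CPM, Hadh at 138 CPM, Echs1 at 106 CPM, Acaa2 at 160 CPM, Eci1 at 50.3 CPM and Etfb at 83.1 CPM. In the 24-mo WT group, mouse 1 stood above the others in 10 genes: Cpt2 at 39.3 CPM, Acadl at 113 CPM, Acadvl at 222 CPM, Hadha at 193 CPM, Hadhb at 289.9 CPM, Acaa2 at 155 CPM, Eci1 at 39.8 CPM, Etfdh at 80.8 CPM, Acaa1b at 4.86 CPM and Ppard at 13.2 CPM. These 2 mice also had the highest brown fat scores of their groups, at 5.09 and 4.90 mean log2 CPM. Eci2 was set apart in mouse 2 of the 24-mo WT group, at 73.6 CPM against 58.5 to 63.1 CPM in the others. Acot1 was set apart in mouse 4 of the 2-mo WT group, at 0.243 CPM against 0.964 to 1.24 CPM in the others. No HGPS value was beyond the critical value in any of the 33 genes.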

How the results depend on the processing

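The counts at an adjusted p under 0.05 were steady over normalization and filter, and the counts at the stricter cut-offs were not. In HGPS against 2-mo WT mice, members higher at an adjusted p under 0.05 numbered 21 to 25 when 1 mouse was left out, and in HGPS against 24-mo WT mice 23 to 25 higher and 1 to 2 lower. At the stricter cut-offs the numbers were 1 to 16 and 1 to 17. Against 2-mo WT mice they were 1 without HGPS mouse 2 or 3 or 2-mo WT mouse 2, 3, 4, 5 or 6, 3 without HGPS mouse 1, 4 without HGPS mouse 6 or 24-mo WT mouse 2, 14 without HGPS mouse 4 and 16 without 2-mo WT mouse 1. Against 24-mo WT mice they were 1 without 24-mo WT mouse 5, 2 without 24-mo WT mouse 2 or 6, 3 without HGPS mouse 2 or 3 or 24-mo WT mouse 3 or 4, 5 without HGPS mouse 6 or 2-mo WT mouse 5, 13 without 2-mo WT mouse 1, 14 without 24-mo WT mouse 1 and 17 without HGPS mouse 4. The count of 2 lower than in 24-mo WT mice became 1 without HGPS mouse 2 or 6 or 24-mo WT mouse 2 or 3.

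At the stricter cut-offs, against 2-mo and 24-mo WT mice in turn, DESeq2 called 15 and 18 higher, no count filter 12 and 16, fits of only the 2 groups 1 and 2, a test against a 1.5-fold change 0 and 0, and the fit without HGPS mice 2 and 3 (added after seeing the data) 1 and 0. Without these 2 mice, 2 were lower than in 2-mo WT mice at an adjusted p under 0.05. The fit with the replicate number as a block, although the labels do not say that the numbers pair the mice, called 10 and 9 at the cut-offs, and 1 lower than in 24-mo WT mice at an adjusted p under 0.05, as did no filter and the fit of 2 groups. With the brown fat score as a covariate the cut-offs gave 1 and 0, and an adjusted p under 0.05 gave 2 and 3 higher. With the skeletal muscle score added these were 1 and 0, and 3 and 2. In both fits Acox3 was lower than in 2-mo WT mice, and Acox3, Decr2 and Ppara were lower than in 24-mo WT mice. With the macrophage score added instead (chosen after seeing the data), the cut-offs gave 0 and 0. An adjusted p under 0.05 then gave 1 and 1 higher, and 0 and 0 lower. The macrophage score of HGPS mice did not overlap with that of either WT group, so this fit cannot tell it apart from the genotype. In 24-mo against 2-mo WT mice, 1 member (Ppara) was then called with the brown fat score, alone or with the macrophage score, and 0 were called when any 1 mouse was left out.

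These genes changed sign with the brown fat score as a covariate, against 2-mo WT mice: Acot2 (-0.12), Cpt1a (0.013), Acat1 (-0.069), Acaa1a (-0.15), Ehhadh (-0.28), Hsd17b4 (-0.007) and Ppara (-0.24), and against 24-mo WT mice: Acot2 (-0.018), Acads (-0.05), Acat1 (-0.037), Acaa1a (-0.062), Ehhadh (-0.38) and Ppara (-0.84, adjusted p = 0.0063, edgeR). With the skeletal muscle score added these were Acot2 (-0.10), Cpt1a (0.068), Hadh (-0.01), Acat1 (-0.059), Acaa1a (-0.17), Ehhadh (-0.24) and Ppara (-0.27) against 2-mo WT mice, and Acot2 (-0.043), Acat1 (-0.048), Acaa1a (-0.039), Ehhadh (-0.41) and Ppara (-0.80) against 24-mo WT mice. With the macrophage score added instead they were Acot1 (-0.71), Acat1 (-0.023), Acaa1a (-0.22) and Ehhadh (-0.16), and Acot1 (-0.60), Acaa1a (-0.14), Ehhadh (-0.27) and Ppara (-0.57). Acaa1a, at 0.009 in the report, was also -0.027 without HGPS mice 2 and 3, and -0.028 to 0.066 when 1 mouse was left out. The cause of these changes was not tested. At these depths Acot1 and Acaa1b, with 22.3 and 80.2 counts per mouse, are the least precise of the 33.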
